A study of Homo sapiens with 6 samples.

Results

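The genes described here make and load MHC class I, which presents peptides to cytotoxic T cells, together with CD274, which encodes the checkpoint ligand PD-L1. They were chosen by name from the rows of the coding-gene table, and all 9 were present among its 15376 rows: HLA-B, HLA-C, HLA-E, B2M, TAP1, TAP2, TAPBP, NLRC5 and CD274. RNA was sequenced from PC9ER, a line of human lung cancer cells (the non-small cell type) that depends on the growth factor receptor EGFR and resists the EGFR inhibitor gefitinib. Treated cells received 1 µM gefitinib for 6 h and the control cells DMSO, with 3 libraries in each group. The growth medium held 10% fetal calf serum, and the treatment text, which is the same on every sample, describes 72 h with the Notch pathway inhibitor DBZ or its DMSO vehicle followed by a night without serum, before gefitinib. No sample used here is labelled as given DBZ. The labels do not state whether the control cells were starved too, so gefitinib and serum state cannot be told apart where they may differ. All libraries come from 1 line, and nothing says that replicates were separate cultures, so p-values measure the spread between these libraries, which may be technical.

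MHC class I molecules display fragments of a cell's own proteins at its surface. Peptides cut by the proteasome are pumped into the endoplasmic reticulum by a transporter made of TAP1 and TAP2, and tapasin, the product of TAPBP, bridges that transporter to a waiting heavy chain, encoded by HLA-B, HLA-C or HLA-E among others, which pairs with the light chain encoded by B2M. NLRC5 is a transcriptional activator of most of these genes, and interferons are their best known inducers. HLA-E differs from the classical heavy chains in presenting mainly leader peptides of other class I molecules to NK cell receptors, while PD-L1 binds the receptor PD-1 on T cells and dampens their response.

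Libraries held between 13674237 and 38581498 reads in coding genes. The normalized count used throughout is the authors' read count scaled to 18085800 per library, so that 1 read is worth between 0.469 and 1.32. All 7 epithelial markers were read in every library, with a summed normalized count from 68636 to 71768 in gefitinib libraries and from 82189 to 117772 in control libraries, and 1 rose and 5 fell. Blood markers, which could mark cells rich in MHC class I, summed to between 45.0 and 58.6 in gefitinib libraries and between 64.7 and 83.9 in control libraries over 8 genes. Of these, PTPRC reached at most 1.32, and 1 gene rose and 1 fell. The riser, CD14, had 7.12 ± 2.30 in gefitinib and 0.322 ± 0.557 in control libraries (SD, n = 3). ITGAM fell, with 15.1 ± 10.1 in gefitinib and 46.4 ± 6.85 in control libraries. LYZ had 24.4 ± 5.10 in gefitinib and 23.0 ± 5.58 in control libraries and did not pass the test. Fibroblast markers summed to at most 68.0 in gefitinib and 71.4 in control libraries. Of the 3 endothelial markers, which summed to between 147 and 176 in gefitinib and between 1180 and 1360 in control libraries, VWF and CDH5 did not pass the test and PECAM1 fell, with 122 ± 10.5 in gefitinib and 1216 ± 80.4 in control libraries (SD, n = 3). What part these shifts have in the members' values was not tested.

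Start regions of 4 of the 5 members that passed the test are shown first, since factors of the interferon, NF-kappa-B and NLRC5 pathways are known to act at the starts of genes of this family. RefSeq windows from 250 bases before to 50 after a gene's start (GRCh38.p14) were found for 7 of the 9 members, all but HLA-E and NLRC5. RefSeq starts differ from those of the GENCODE principal transcripts, by 274 bases for TAP1 and 134 for TAPBP, so that the TAP1 window lies wholly downstream of the GENCODE start given below. Capitals mark matches, on either strand, to a pair of GAAA separated by 2 bases of any kind, the core of the interferon-stimulated response element, to TTCNNNGAA, a STAT site, to CCAAT, to TGACG with its longer form TGACGTCA, and to the NF-kappa-B site. The CD274 window is chr9:5450292-5450591 on the plus strand, B2M chr15:44711267-44711566 on the plus strand, TAP1 chr6:32853655-32853954 on the minus strand and TAP2 chr6:32838690-32838989 on the minus strand, each written 5′ to 3′ along its gene.
CD274: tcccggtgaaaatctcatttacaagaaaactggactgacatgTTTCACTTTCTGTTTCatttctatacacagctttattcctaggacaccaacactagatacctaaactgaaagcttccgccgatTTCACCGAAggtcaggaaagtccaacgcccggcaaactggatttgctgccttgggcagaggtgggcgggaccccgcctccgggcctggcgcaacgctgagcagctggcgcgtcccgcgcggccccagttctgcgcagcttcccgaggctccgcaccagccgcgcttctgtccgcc
B2M: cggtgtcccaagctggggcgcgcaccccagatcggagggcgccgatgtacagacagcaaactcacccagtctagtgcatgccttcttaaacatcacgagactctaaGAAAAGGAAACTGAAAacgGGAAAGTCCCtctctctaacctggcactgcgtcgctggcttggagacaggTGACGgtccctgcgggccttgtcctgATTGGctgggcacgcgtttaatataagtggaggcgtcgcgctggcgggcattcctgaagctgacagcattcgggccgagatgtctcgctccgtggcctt
TAP1: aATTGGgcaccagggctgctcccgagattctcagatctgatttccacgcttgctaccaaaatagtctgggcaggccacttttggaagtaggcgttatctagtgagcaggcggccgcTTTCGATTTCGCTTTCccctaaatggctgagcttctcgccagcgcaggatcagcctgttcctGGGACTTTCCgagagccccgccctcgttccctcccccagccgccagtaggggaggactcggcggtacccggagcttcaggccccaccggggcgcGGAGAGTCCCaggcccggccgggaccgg
TAP2: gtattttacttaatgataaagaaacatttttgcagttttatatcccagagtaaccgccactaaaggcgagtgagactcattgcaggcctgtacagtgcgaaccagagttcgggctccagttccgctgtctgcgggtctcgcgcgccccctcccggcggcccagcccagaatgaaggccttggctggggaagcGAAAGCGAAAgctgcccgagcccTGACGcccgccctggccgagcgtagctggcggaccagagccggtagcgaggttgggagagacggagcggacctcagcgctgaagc

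The paired GAAA core was found in 5 of the 7 windows (B2M, TAP1, TAP2, TAPBP and CD274), against 3.57% of all 35116 windows of the same length. Members with that core included genes that rose with gefitinib, genes that fell and TAPBP, which did not pass the test. Letters of the NF-kappa-B site were in 5 of 7 (HLA-B, HLA-C, B2M, TAP1 and TAPBP), against 11.3% of all windows. TGACG was in 4 of 7 windows against 24.6%, CCAAT in 4 of 7 against 34.6%, TTCNNNGAA in 1 of 7, CD274, against 7.66%, and TGACGTCA in none of the 7. Of the 4 windows shown, those of CD274 and TAP2 held no match to the NF-kappa-B site or CCAAT, and those of CD274 and TAP1 none to TGACG. A match is a string of letters in a reference window, and no binding was measured. Only exact matches were counted, so a window without a match may still hold a similar site.

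CD274 fell most among the members, HLA-E and TAP1 rose, TAP2 fell, and the classical heavy chain genes HLA-B and HLA-C did not pass the test in either direction. At a threshold of 0.05 on the adjusted p from limma, gefitinib libraries exceeded control for 3 of the 9 members and were below it for 2, while 51.1% of the 15229 genes tested were called in this comparison, 28.3% higher and 22.8% lower. Normalized counts of the groups did not overlap for 5 members, against 58.0% of all tested genes, with gefitinib above control for 3 (32.3% of all genes) and below it for 2 (25.7%). With TMM factors, which called 50.8% of genes, and with edgeR on the recovered reads, which called 61.2% of 12167 genes, 2 members were higher and 2 lower. The members' share of calls was thus near that of the whole transcriptome, and their median log2 difference was 0.13, against 0.10 over all genes tested. In bulk RNA, a change in RNA per cell and a change in the share of cells that make it cannot be told apart.

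**Figure D1:**
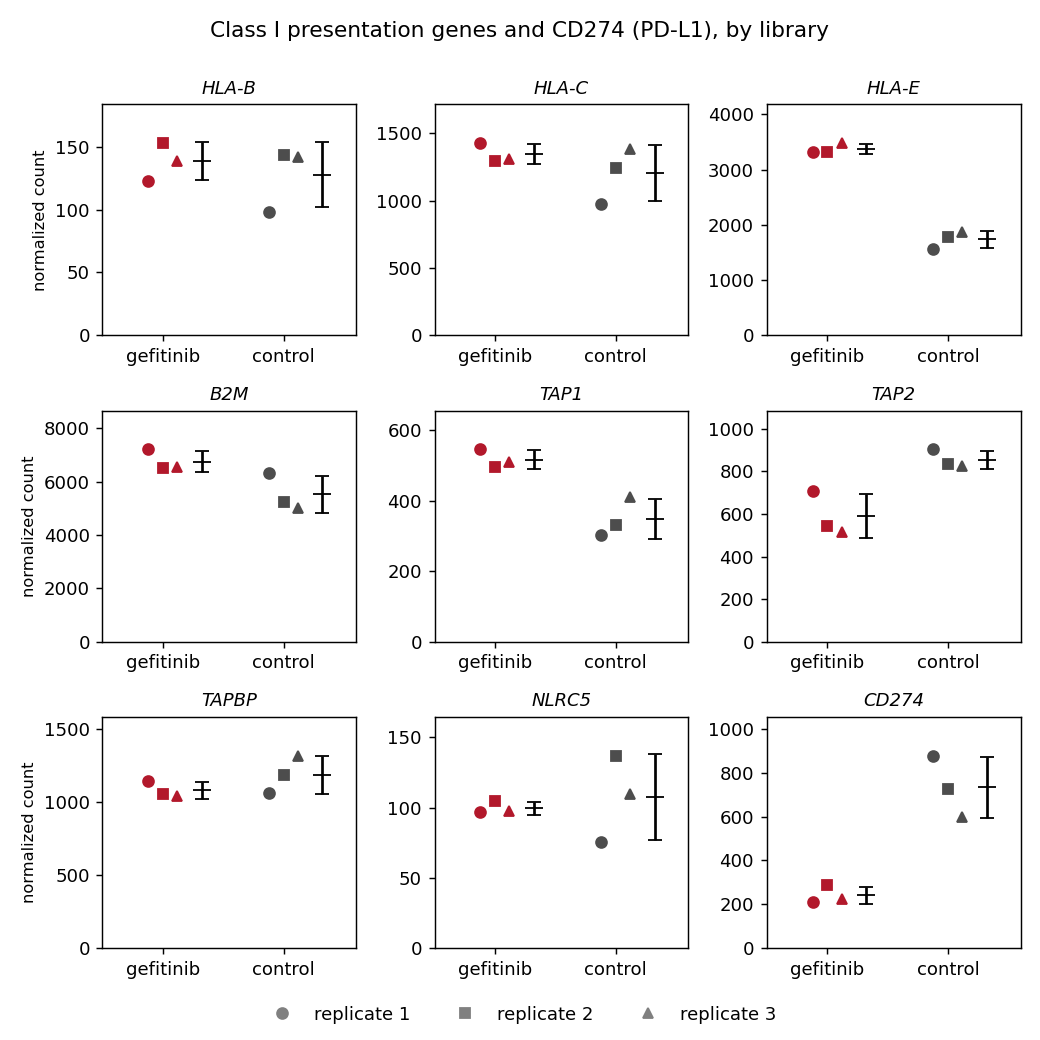
Normalized count of each of the 9 genes (y axis, from 0) in 3 gefitinib libraries (left, red) and 3 control libraries (right, grey); marker shapes give the replicate number, and the bar beside each group is the mean ± SD. Gefitinib libraries lie wholly below control libraries for CD274 and TAP2, wholly above for HLA-E, B2M and TAP1, and overlap them for the other 4 genes.

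HLA-E (chromosome 6, 30489467 to 30494205, GRCh38, plus strand) had normalized counts of 3314, 3321 and 3482 in gefitinib libraries 1 to 3 and 1569, 1787 and 1864 in control libraries 1 to 3. The gefitinib libraries lay close together and far above every control library. The log2 difference was 0.96 ± 0.09 (SE), or 1.94-fold (limma adjusted p = 2.38e-05), and the call was kept under all 16 alternatives.

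The classical heavy chain genes gave no such difference. HLA-C (principal transcript at chromosome 6, 31268749 to 31272086, minus strand) had 1430, 1299 and 1314 in gefitinib libraries and 977, 1245 and 1387 in control libraries. Its log2 difference was 0.18, with a 95% interval from -0.11 to 0.47 (limma adjusted p = 0.284), so a rise of the size seen for HLA-E lies outside the interval. HLA-B (principal transcript at chromosome 6, 31353872 to 31357187, minus strand) had 123, 153 and 139 in gefitinib libraries and 98.1, 143 and 142 in control libraries. The groups overlapped, and the HLA-B difference of 0.13 had an interval from -0.34 to 0.60 (limma adjusted p = 0.634).

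B2M (chromosome 15, 44711487 to 44718877, plus strand), the light chain shared by all class I molecules, had 7211, 6495 and 6529 in gefitinib libraries and 6328, 5221 and 5023 in control libraries. The lowest gefitinib library stood just above the highest control library. The log2 difference was 0.29 ± 0.10 (limma adjusted p = 0.0340). That call did not hold with TMM factors, where the difference was 0.23 and the adjusted p 0.119, and it was lost in 11 of 16 alternatives, among them the removal of any single library other than control replicate 1 (adjusted p from 0.104 to 0.147).

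Because a ratio of 2 genes within a library does not depend on how libraries are scaled, heavy chains were set against each other. HLA-E over HLA-C, not a planned ratio, was 2.32, 2.56 and 2.65 in gefitinib libraries and 1.61, 1.44 and 1.34 in control libraries. The ratio was higher in every gefitinib library than in any control library. It sets a gene that passed the test against a gene that did not, so this separation adds no independent evidence. HLA-B over HLA-C, as a log2 ratio, was -3.54, -3.09 and -3.24 in gefitinib libraries and -3.32, -3.12 and -3.29 in control libraries, and overlapped. B2M over the sum of HLA-B, HLA-C and HLA-E was 1.48, 1.36 and 1.32 in gefitinib libraries and 2.39, 1.64 and 1.48 in control libraries.

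The 2 subunit genes of the peptide transporter moved in opposite directions. TAP1 (chromosome 6, 32845209 to 32853978, minus strand) had 546, 495 and 510 in gefitinib libraries and 302, 330 and 411 in control libraries, without overlap. Its log2 difference was 0.58 ± 0.14, a rise with a limma adjusted p of 0.00655 that passed under all 16 alternatives. TAP2 (principal transcript at chromosome 6, 32821833 to 32838727, minus strand) had 710, 545 and 517 in gefitinib libraries and 904, 837 and 825 in control libraries. It fell by 0.55 ± 0.13 (limma adjusted p = 0.00683), and gefitinib replicate 1 was the library nearest to control. The TAP2 call was lost without gefitinib replicate 2 (adjusted p = 0.0607) or gefitinib replicate 3 (adjusted p = 0.0582), so that 1 member in place of 2 was then called lower. TAP1 over TAP2 was 0.769, 0.909 and 0.986 in gefitinib libraries and 0.334, 0.395 and 0.498 in control libraries, a log2 difference of 1.13 in the ratio. In GENCODE, 32.3% of the TAP2 exon bases are also exon bases of AL669918.1 on the same strand, and 9.49% of those of TAP1 lie opposite PSMB8-AS1, so part of the reads could have been counted elsewhere. For HLA-B, 17.8% of the exon bases lie opposite AL671883.2 and 1.15% are shared with HLA-C on the same strand.

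TAPBP, the tapasin gene (principal transcript at chromosome 6, 33303573 to 33314212, minus strand), had 1143, 1056 and 1039 in gefitinib libraries and 1059, 1183 and 1317 in control libraries. Its log2 difference of -0.13 had an interval from -0.36 to 0.10 (limma adjusted p = 0.321). NLRC5 (principal transcript at chromosome 16, 56989498 to 57083524, plus strand) had 96.6, 105 and 97.5 in gefitinib libraries and 75.5, 137 and 110 in control libraries, with all gefitinib values inside the control range. The NLRC5 difference of -0.07 had a wide interval, from -0.62 to 0.48 (limma adjusted p = 0.830), resting on 397 reads in the gefitinib and 344 in the control libraries. With 28.8%, NLRC5 also had the highest coefficient of variation of the 9 genes among control libraries, against 4.55% among gefitinib libraries.

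**Figure D2:**
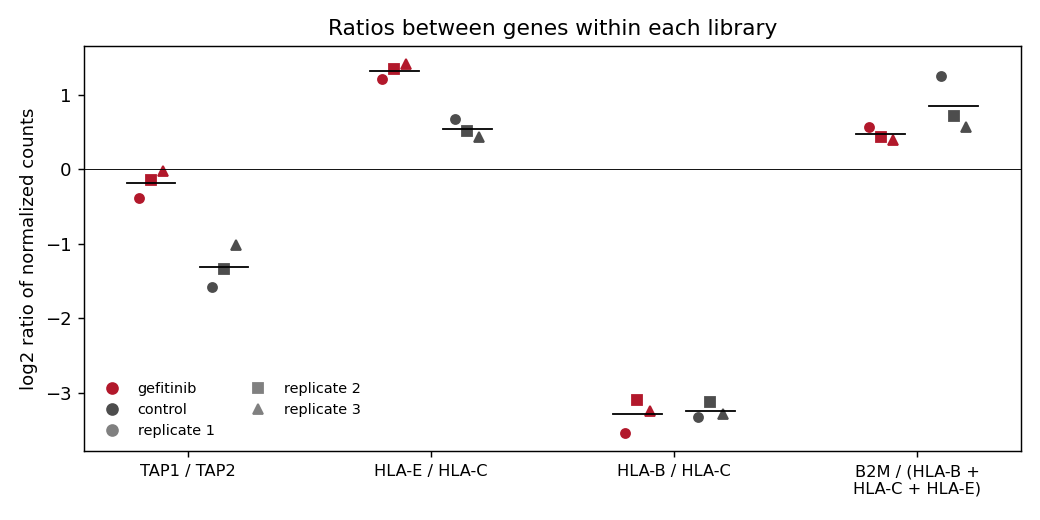
Log2 ratio of normalized counts between genes (y axis) in each gefitinib library (red, left of each pair) and control library (grey, right), with shapes for replicate numbers and a line at the mean of 3. TAP1 over TAP2 and HLA-E over HLA-C, the latter not a planned ratio, separate the groups, whereas HLA-B over HLA-C does not. The lowest control value of B2M over the 3 heavy chains, 0.57, meets the highest gefitinib value.

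CD274 (chromosome 9, 5450503 to 5470566, plus strand) had 210, 286 and 225 in gefitinib libraries and 878, 724 and 596 in control libraries. Every gefitinib library was far below the lowest control library. The log2 difference was -1.60 ± 0.17, a 3.03-fold lower level (limma adjusted p = 6.87e-05), and it lay between -1.74 and -1.46 under all 16 alternatives, each with the call kept. PDCD1LG2, the neighbouring gene for the second PD-1 ligand, PD-L2, has its start 60.1 kb further along the chromosome. It had 5.29, 3.61 and 6.09 in gefitinib libraries and 174, 165 and 129 in control libraries, or 21 reads in all gefitinib against 529 in all control libraries. Its log2 difference was -4.72 ± 0.29 (limma adjusted p = 3.38e-06).

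Around CD274, the 3 coding genes of the table on each side were read as well, a choice made after the data were seen. On the near side, PLGRKT, which encodes a plasminogen receptor, fell to 375 ± 13.4 in gefitinib libraries, against 609 ± 59.2 in control libraries (SD, n = 3). The relaxin genes RLN1 and RLN2 fell too, from few reads, 7 each in all gefitinib libraries and 20 and 28 in all control libraries. On the far side of PDCD1LG2, RIC1 had 911 ± 90.3 in gefitinib and 888 ± 82.5 in control libraries and did not pass the test (limma adjusted p = 0.814). ERMP1 rose by 0.34 ± 0.10 (limma adjusted p = 0.0147). Lower counts were thus seen for some and not all coding genes read there, while 22.8% of all genes tested were called lower. The cause was not tested.

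Levels of different genes were compared per kilobase of the GENCODE principal transcript, as normalized counts per kb. In gefitinib libraries B2M stood highest at 3956 ± 237 (SD, n = 3), followed by HLA-E at 1297 ± 36.5, HLA-C at 877 ± 46.7, TAPBP at 572 ± 29.4, TAP2 at 237 ± 41.8, TAP1 at 175 ± 8.87, HLA-B at 89.3 ± 9.61, CD274 at 65.9 ± 10.9 and NLRC5 at 14.6 ± 0.664. In control libraries the order was B2M at 3240 ± 412, HLA-C at 783 ± 136, HLA-E at 669 ± 58.9, TAPBP at 628 ± 68.3, TAP2 at 343 ± 17.1, CD274 at 201 ± 38.8, TAP1 at 118 ± 19.2, HLA-B at 82.5 ± 16.5 and NLRC5 at 15.8 ± 4.54. Among control libraries HLA-C, HLA-E and TAPBP overlapped within 1 SD, as did TAP1 and HLA-B, whereas no neighbours overlapped in that way among gefitinib libraries. CD274 had rank 8 in gefitinib and rank 6 in control libraries by this length. The order depended on the length used. With the union of all exons, CD274 had rank 7 in gefitinib and rank 5 in control libraries, and B2M came second to HLA-E in gefitinib libraries, at 1110 ± 66.4 and 1134 ± 31.9. In control libraries HLA-E, at 585 ± 51.5, then stood above HLA-C, at 480 ± 83.1.

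Per kb, HLA-B was read far less than HLA-C, in gefitinib and in control libraries alike. These genes are related in sequence and highly variable between people. In the reference, 2.47% of the 50-base stretches of the HLA-B principal transcript also occur in another class I heavy chain gene, against 6.66% for HLA-C and 4.66% for HLA-E. The alleles of this line were not analysed here. Nor was it tested how many reads of a variable gene fail to align or fall on a related gene. Levels between HLA genes are therefore uncertain.

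Control replicate 1 stood apart from the other controls for many members. It had the lowest control value of 6 members and the highest of the other 3, CD274, B2M and TAP2. Without it, the log2 difference was 0.89 for HLA-E, 0.49 for TAP1, -0.51 for TAP2, 0.40 for B2M and -1.46 for CD274, each still called, and -0.05 for HLA-B and 0.03 for HLA-C. Its keratin counts were also the lowest of the control group, and its library had the most reads of the 3 controls, at 25639050. Their part in these results was not tested.

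Of the 9 members, 6 lie in the MHC region of chromosome 6. Between HLA-F and TAPBP (29722775 to 33314387), 119 coding genes were tested, a span chosen after the data were seen. Of these, 23 rose, 30 fell and 66 did not pass. The share called was 44.5%, against 51.1% of all genes. Their median log2 difference was -0.06, against 0.10 over all genes. In RefSeq, the TAP1 start lies 488 bases from that of PSMB9, an immunoproteasome subunit gene read in the opposite direction. GENCODE 29 places the outermost PSMB9 start at 32844136, past the 3′ end of TAP1 at 32845209. PSMB9 was nearly silent, with 7.49 ± 4.23 in gefitinib and 9.48 ± 0.497 in control libraries (SD, n = 3; limma adjusted p = 0.431).

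Other class I and class I-like molecules were followed as a list of 12 genes, of which 11 were in the table. Of these, 5 rose, 1 fell and 5 did not pass, so 54.5% were called, against 51.1% of all genes, and the median log2 difference was 0.42, against 0.10 over all genes. The risers were all stress-induced ligands of the activating NK cell receptor NKG2D. ULBP1 had 91.3, 119 and 137 in gefitinib libraries and 16.2, 11.2 and 18.3 in control libraries, which is 7.23-fold higher (limma adjusted p = 4.56e-05). MICA rose by 0.84 ± 0.22 to 117 ± 22.5 in gefitinib libraries, against 63.9 ± 3.66 in control libraries, and MICB by 0.33 ± 0.09. ULBP2 and ULBP3, chosen for naming once their values were known, rose by 0.93 ± 0.28 and 0.90 ± 0.26. Their calls were each lost in 4 of 16 alternatives and that of MICB in 3, while ULBP1 and MICA kept theirs in all 16. MR1, which presents vitamin metabolites to T cells, fell by 0.52 ± 0.12. Without gefitinib replicate 2, 2 genes of the list were called higher, and without gefitinib replicate 1, control replicate 2 or control replicate 3 there were 3.

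**Figure D3:**
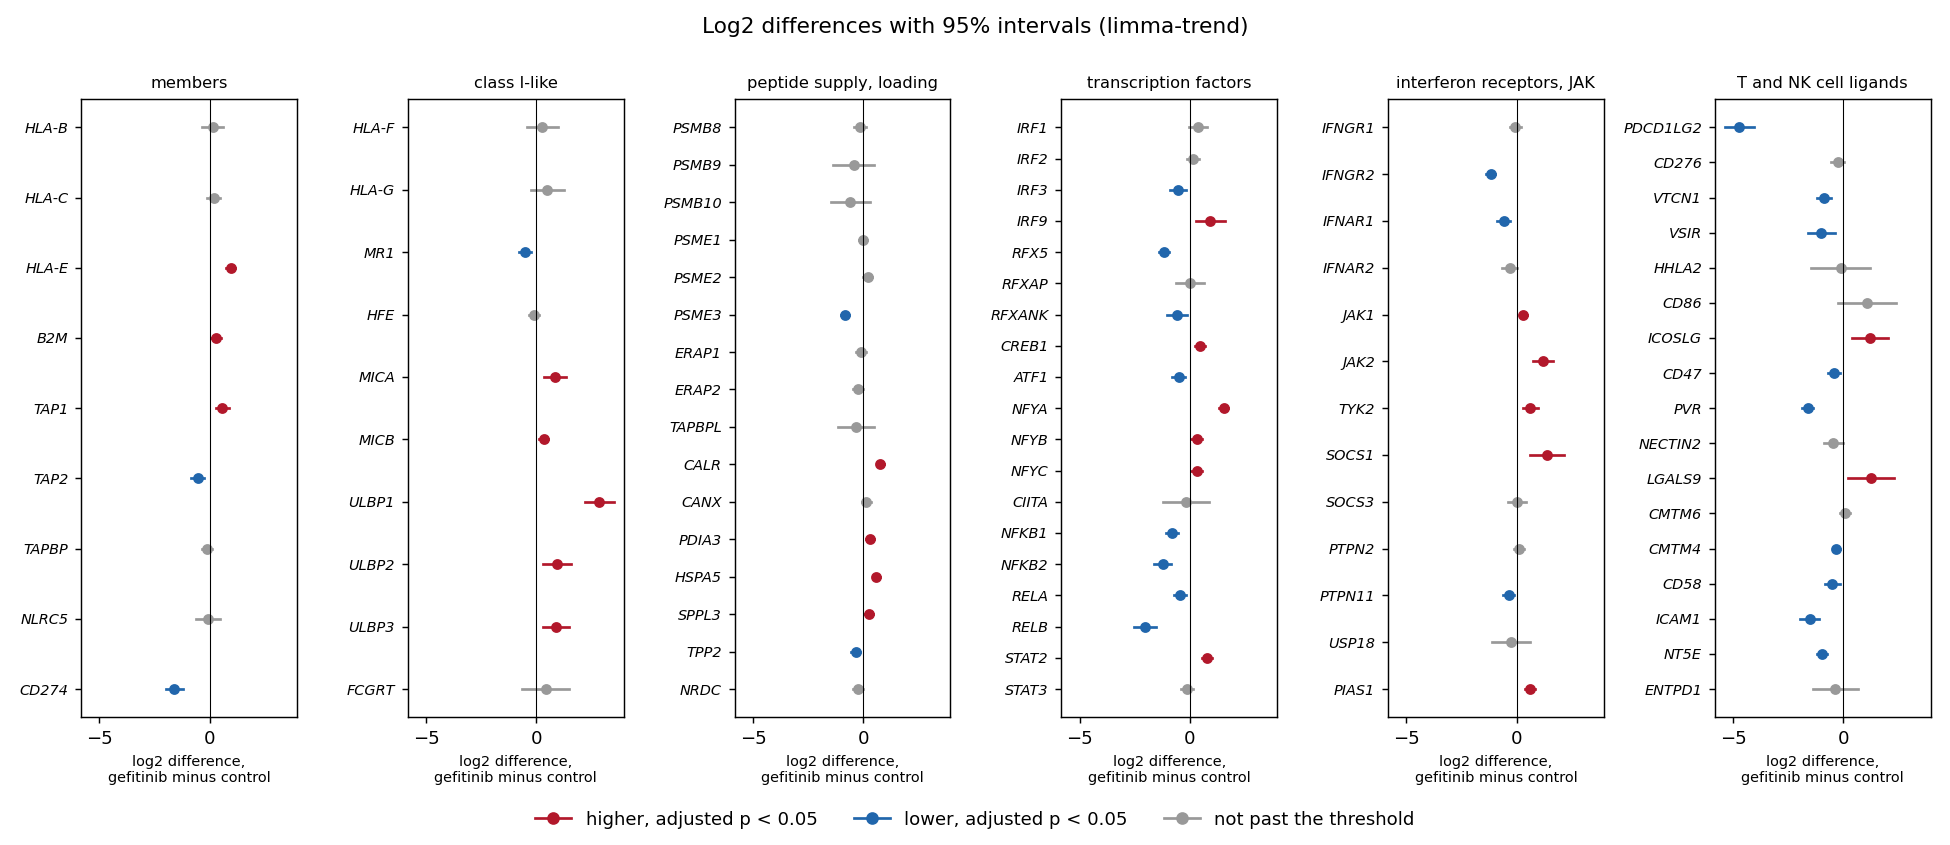
Log2 difference, gefitinib minus control (x axis), with its 95% interval from limma-trend, for the 9 members (left) and for genes from 5 related lists; red is higher, blue is lower and grey is not past an adjusted p of 0.05. PDCD1LG2 at -4.72 and ULBP1 at 2.85 lie farthest from 0, and CD274 at -1.60 lies farthest among the 9.

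Of 16 genes that supply and load peptides, 4 rose, 2 fell and 10 did not pass, with a median of -0.11. The share called was 37.5%, against 51.1% of all genes. CALR, the calreticulin gene, rose to 23613 ± 713 in gefitinib libraries, against 13875 ± 362 in control libraries (SD, n = 3; log2 difference 0.77 ± 0.07), and HSPA5, the reticulum chaperone BiP, rose by 0.60 ± 0.08. PDIA3, the disulfide isomerase of the loading complex, rose by 0.31 ± 0.09, and so did SPPL3, a membrane protease gene named after its value was seen, by 0.27 ± 0.09. The calls of PDIA3 and SPPL3 were each lost in 10 of 16 alternatives, among them TMM factors (adjusted p = 0.0688 for PDIA3 and 0.0729 for SPPL3). PSME3, a proteasome activator gene, fell by 0.84 ± 0.08, and TPP2, a peptidase gene named after its value was seen, by 0.33 ± 0.10. The immunoproteasome gene PSMB8 had 418 ± 15.9 in gefitinib and 460 ± 43.0 in control libraries, a log2 difference of -0.13 that did not pass. PSMB10, from the same complex, had 15.9, 10.8 and 18.8 in gefitinib libraries and 14.1, 24.5 and 32.8 in control libraries, and did not pass. Calls in this list depended on scaling, with 2 higher and 4 lower under TMM factors. Removal of any gefitinib library gave 2 higher and between 1 and 2 lower, and without control replicate 2 there was 1 lower.

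Among transcription factors that act on class I genes, 6 of 20 rose, 9 fell and 5 did not pass, with a median of -0.15 and 75.0% called, against 51.1% of all genes. RFX5, a subunit of the factor that holds NLRC5 at class I promoters, had 446, 400 and 384 in gefitinib libraries and 954, 953 and 863 in control libraries. It fell by 1.17 ± 0.11 on the log2 scale (limma adjusted p = 2.43e-05). NFYA, a subunit of the factor that binds CCAAT, rose to 2619 ± 237 in gefitinib libraries, against 897 ± 35.4 in control libraries. Of the NF-kappa-B genes, RELB fell to 75.5 ± 22.8, against 305 ± 8.36 in control libraries, a log2 difference of -2.04 ± 0.22. NFKB1, NFKB2 and RELA, picked out after their values were known, fell by 0.82, 1.24 and 0.44. STAT2, an interferon-activated factor, rose by 0.77 ± 0.10, while the interferon-responsive IRF1 had 245 ± 52.1 in gefitinib and 187 ± 18.8 in control libraries (limma adjusted p = 0.126) and IRF2 had 510 ± 39.5 in gefitinib and 463 ± 30.4 in control libraries. Of the 20, 3 were called higher without gefitinib replicate 1, 2 or 3 or control replicate 2 or 3. Without gefitinib replicate 2, gefitinib replicate 3 or control replicate 2, 5 were called lower. The risers NFYB and NFYC lost their calls in 12 and 13 of 16 alternatives, among them TMM factors (limma adjusted p = 0.113 and 0.0933). The riser IRF9 lost its call in 6. Of those that fell, IRF3 and RFXANK each lost the call in 5, and RELA and ATF1 each in 4. These genes were picked out after their values were known.

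Of 13 genes for interferon receptors, their kinases and regulators, 5 rose, 3 fell and 5 did not pass, with a median of 0.03. The share called, 61.5%, was near the 51.1% of all genes. IFNGR2, which encodes the signalling chain of the interferon gamma receptor, fell to 369 ± 7.82 in gefitinib libraries, against 838 ± 22.9 in control libraries (SD, n = 3; limma adjusted p = 1.40e-05). Its partner chain gene IFNGR1 had 2003 ± 208 in gefitinib and 2099 ± 274 in control libraries (log2 difference -0.06, limma adjusted p = 0.666). The kinase gene JAK2 rose to 220 ± 41.6 in gefitinib libraries, against 94.0 ± 10.7 in control libraries (limma adjusted p = 0.000802), TYK2 by 0.63 ± 0.14 and JAK1 by 0.31 ± 0.07. PIAS1, a restrainer of STAT signalling, rose by 0.59 ± 0.10. The fifth riser was SOCS1, a feedback inhibitor, and the other two that fell were IFNAR1 and PTPN11, all picked out after their values were known. Without gefitinib replicate 3, 1 gene of the list was called lower. The call was lost in 2 of 16 alternatives for TYK2, in 4 for PTPN11 and in 1 for IFNAR1. IFNGR2, JAK1, JAK2, PIAS1 and SOCS1 kept theirs in all 16.

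A list of other ligands of T and NK cell receptors, PD-L1 regulators and ectoenzymes had 9 of 17 genes lower, 2 higher and 6 not past the threshold, with a median of -0.43. The share called was 64.7%, against 51.1% of all genes. Beside PDCD1LG2, PVR, which encodes the ligand of the receptors TIGIT and DNAM-1, fell to 1795 ± 251 in gefitinib libraries, against 5474 ± 378 in control libraries (SD, n = 3; limma adjusted p = 5.13e-06). ICAM1, an adhesion ligand of T cells, fell to 281 ± 84.4, against 796 ± 92.1 in control libraries, and NT5E, the ectoenzyme CD73, to 3548 ± 255, against 6949 ± 895 in control libraries. CMTM6, which protects PD-L1 protein from degradation, had 8943 ± 816 in gefitinib and 8461 ± 997 in control libraries (log2 difference 0.08, interval -0.15 to 0.32). Its relative CMTM4, picked out after its value was known, fell by 0.31 ± 0.07 (limma adjusted p = 0.00571). The risers ICOSLG and LGALS9, named after their values were seen, had 17.5 ± 4.84 and 12.9 ± 6.66 in gefitinib libraries and 6.82 ± 1.63 and 4.54 ± 1.92 in control libraries, and without gefitinib replicate 3 no gene of the list was called higher. Removal of gefitinib replicate 2, control replicate 1 or control replicate 2 left 1 higher, and without gefitinib replicate 2 the count of lower genes was 6. Of the 11 MHC class II genes listed, 5 were in the table and 0 were called by limma, edgeR or DESeq2, and 0 had an unadjusted limma p under 0.05. HLA-DMA had 66.1, 64.2 and 92.8 in gefitinib libraries and 67.0, 74.7 and 75.3 in control libraries, and HLA-DRA was listed at 0 in 5 of the 6 libraries.

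**Figure D4:**
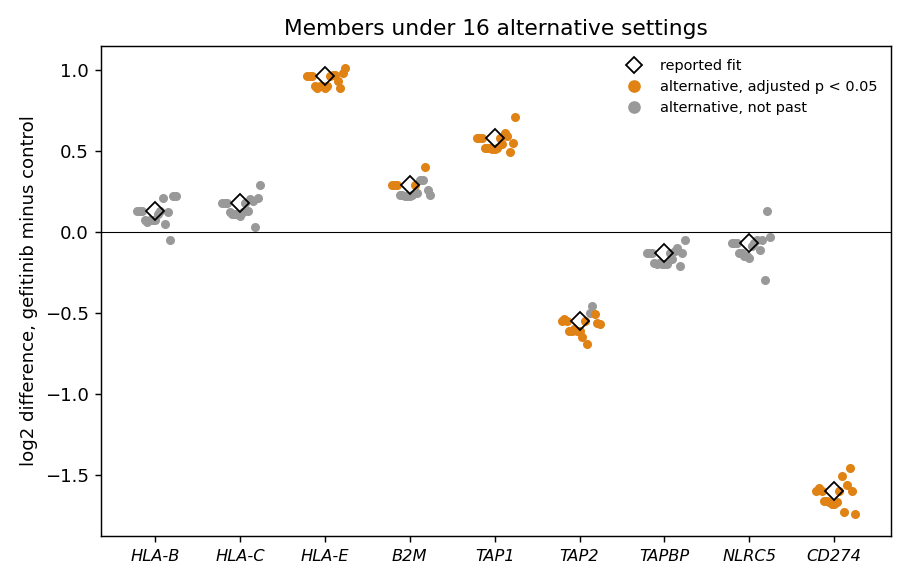
Log2 difference of each of the 9 genes, gefitinib minus control (y axis), in the reported fit (open diamond) and under 16 alternatives (dots, orange where the adjusted p was under 0.05, grey otherwise). HLA-E, TAP1 and CD274 were called under all 16, TAP2 under 14 and B2M under 5, and HLA-B, HLA-C, TAPBP and NLRC5 under none.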

How the data were processed

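The deposited coding-gene table holds a never-negative signal: reads counted per gene, with every library brought by the authors to 18085800 in sum. STAR, HTSeq and GRCh38 are listed in the submitters' processing notes. Versions, the annotation and whether reads were counted by strand are not given in the sources used here. Values above 0 are whole multiples of 1 step per library (100% within 0.01 read), which gave back the reads. A second deposited table served for gene IDs, symbols and start positions (another unit, bases); its 6 per-sample columns match no label and are not used. Coordinates are from GENCODE 29.

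One fit of limma-trend (limma 3.58.1, R 4.3.3) to log2(value + 1) covered all 15229 rows with a value above 0. Tests are 2-sided, p-values were adjusted across these rows after Benjamini and Hochberg, and the threshold is 0.05. Log2 differences are gefitinib minus control, carry SE or 95% intervals, and understate changes of low genes. The members and lists were chosen with earlier results of these data known. Named genes are the 9 members, 11 further genes, up to 4 of each list by smallest p, and the 5 genes most like CD274 and HLA-B among those with a mean of 50 or more. Some genes covered by this rule are counted within their lists but not reported here. NECTIN2, NRDC and VSIR were matched by gene ID to their older symbols in the table.

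Alternatives were pseudocounts of 0.5 and 5, a mean of 10 or more, TMM and DESeq2 size factors, edgeR 4.0.16 with and without its filter, limma-voom and DESeq2 1.42.0 (each from recovered reads), a replicate block, and leaving out each library. The fit was tested on simulated data given the same spread for every gene and library, which need not match these libraries. Libraries of the same group all differed by more than counting noise.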

Additional observations from a re-analysis of the deposited data

How the results depend on the processing

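Over all genes, 4312 were called higher and 3473 lower, against 3701 and 3749 with edgeR on the recovered reads and 3933 and 3799 with TMM factors. With the replicate block, 4438 were higher and 3552 lower, and 3 members were higher and 2 lower, as without it. Same-numbered libraries deviated together weakly (correlations of 0.16, 0.09 and 0.13 over 10764 genes), and gefitinib replicate 3 correlated best with control replicate 2 (0.14), so the numbers were not taken as pairs. Leaving out each library gave 3233 to 4439 genes higher and 2640 to 3857 lower, 2 to 3 members higher and 1 to 2 lower. Signs changed, without a call, when 1 library was left out: HLA-B ranged from -0.05 to 0.22, NLRC5 from -0.30 to 0.13, IFNGR1 from -0.14 to 0.04, HLA-DMB from -0.64 to 0.18, CD74 from -0.15 to 0.78, SMPD4 from 0.00 to 0.28, PRPF31 from -0.03 to 0.19, CBX2 from -0.08 to 0.20, ACOT8 from -0.04 to 0.29 and URM1 from -0.08 to 0.20. Of the 51 genes named by the rule above, 36 kept direction and side of the threshold under every alternative, 5 lost a call under some and 10 changed sign under some. Genes picked out after their values were known are not among these 51. Some of them, such as NFYB and NFYC, also lost calls, while others, such as NFKB1 and CMTM4, kept theirs throughout. The peptide supply list had 2 higher and 4 lower with TMM factors, DESeq2 size factors, edgeR with or without its filter, DESeq2 and limma-voom, and 4 lower with the replicate block. The transcription factor list had 3 higher with DESeq2. The list of T and NK cell ligands and PD-L1 regulators had 1 higher with a pseudocount of 0.5, a mean of 10 or more, edgeR, limma-voom or the replicate block, and 0 with DESeq2. Without each library in turn, the class I-like list had 2 to 4 higher, peptide supply 2 to 6 higher and 1 to 3 lower, transcription factors 3 to 5 higher and 5 to 8 lower, interferon receptors and kinases 1 to 3 lower, and the ligand list 0 to 2 higher. The causes were not tested. Among the 9 genes, NLRC5 and HLA-B rest on the fewest reads. What part depth has in their spread between libraries was not tested.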

Other observations

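Genes with a profile most like that of CD274 over the 6 libraries, by Euclidean distance of gene-centred log2(value + 1) among 10761 genes with a mean of 50 or more, were STAMBPL1, LBHD1, NABP1, TIGD7 and TBL1XR1. STAMBPL1, at a distance of 0.201, encodes a deubiquitinase, and had means of 87.4 in gefitinib and 278 in control libraries. NABP1, a single-stranded DNA binding protein gene, had means of 371 in gefitinib and 1232 in control libraries, and TBL1XR1, a corepressor subunit gene, of 1723 in gefitinib and 5318 in control libraries. All 5 lay between -1.71 and -1.51 on the log2 scale, against -1.60 for CD274. The genes most like HLA-B were SMPD4, PRPF31, CBX2, ACOT8 and URM1, at distances from 0.0890 to 0.163, with log2 differences from 0.09 to 0.18. With 6 libraries in 2 groups, a short distance says little beyond a like difference between the groups.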
